A study of Mus musculus with 12 samples.

Results

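The genes described here are 10 genes of the MHC class I antigen presentation pathway, followed across mouse hepatocellular carcinoma (HCC) and non-cancerous liver with and without a deletion of survivin, the cell division and survival protein encoded by Birc5. They were chosen by name: the class I heavy chains H2-K1 and H2-D1, the light chain B2m, the peptide transporter chains Tap1 and Tap2, the loading factor Tapbp, the immunoproteasome subunits Psmb8, Psmb9 and Psmb10, and the transactivator Nlrc5. All 10 were measured, by 13 probes, among 26506 genes tested, and all 10 passed the filter on dim probes. Expression was read on 12 one-colour Agilent arrays in 4 groups of 3: survivin-deleted HCC, wild-type HCC, survivin-deleted liver and wild-type liver. Every group came from male 129/SV/B6 mice given the liver carcinogen diethylnitrosamine (DEN, 50 mg/kg) at 2 weeks of age. All mice were also irradiated and transplanted with bone marrow, and 8 months after DEN they received poly(IC), a synthetic double-stranded RNA that induces interferon. Tissue was taken 1 week after poly(IC) and 2 months after transplantation. The deleted groups are labelled Mxcre+ and the wild-type groups Mxcre-. The Mx promoter responds to interferon and drives Cre in liver and in blood-forming cells, so the deletion need not be restricted to hepatocytes. Whether it reached blood cells depends on the transplanted marrow, which the labels do not describe. The labels do not say whether the arrays of one group stand for separate mice, whose marrow was transplanted or which exons were removed, so every p-value measures only the spread between these arrays.

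MHC class I molecules carry peptides from the cell interior to the surface, where CD8 T cells read them. Proteins are cut by the proteasome, and interferon-gamma replaces the standard catalytic subunits with the immunoproteasome subunits Psmb8, Psmb9 and Psmb10. The Tap1 and Tap2 transporter moves the peptides into the endoplasmic reticulum, where tapasin, the product of Tapbp, holds the transporter next to an empty heavy chain bound to B2m. Nlrc5 switches on class I genes through the X and Y boxes of their promoters. Hepatocytes carry little class I in a resting liver and more after interferon, and tumours that lose class I escape CD8 T cells. Poly(IC) was given to every group, so all 4 groups were measured after the same interferon-inducing treatment.

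The promoters of 8 of the 10 genes could be read from the RefSeq promoter table (GRCm38.p6). Stretches of 4 of them are printed because they hold the letters through which the class I chains are read together, and the start that Psmb9 and Tap1 share. Capitals mark the X2 box (TGACGC), the Y box (CCAAT, read as ATTGG on the other strand) and, in B2m, the interferon regulatory factor element (GAAANNGAA). H2-K1 is shown at chr17:34000348-34000497 on the minus strand, H2-D1 at chr17:35262944-35263093 on the plus strand and B2m at chr2:122147537-122147686 on the plus strand. The stretch between Psmb9 and Tap1, which are transcribed away from each other, is chr17:34187331-34187555 on the plus strand.
H2-K1 promoter: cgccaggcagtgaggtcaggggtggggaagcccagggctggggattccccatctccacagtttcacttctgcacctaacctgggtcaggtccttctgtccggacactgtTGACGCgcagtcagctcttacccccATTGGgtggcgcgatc
H2-D1 promoter: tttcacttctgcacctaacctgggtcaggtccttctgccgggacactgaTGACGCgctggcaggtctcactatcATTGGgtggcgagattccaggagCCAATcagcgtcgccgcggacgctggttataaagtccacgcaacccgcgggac
B2m promoter: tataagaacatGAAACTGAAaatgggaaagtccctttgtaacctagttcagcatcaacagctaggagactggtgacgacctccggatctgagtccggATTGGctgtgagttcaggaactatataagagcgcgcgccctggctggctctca
Psmb9 to Tap1: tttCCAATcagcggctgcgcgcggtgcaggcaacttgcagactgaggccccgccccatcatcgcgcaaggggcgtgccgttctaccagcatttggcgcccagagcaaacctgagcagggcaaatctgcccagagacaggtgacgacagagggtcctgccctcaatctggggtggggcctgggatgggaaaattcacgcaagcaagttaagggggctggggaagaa

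In H2-K1 and H2-D1 the X2 box and the Y box stand at the same spacing of 25 bases. That pair at that spacing was found in 9 of 32851 promoters (0.0274%), which belong to 8 genes: Cdnf, Gm33299, H2-D1, H2-K1, H2-M3, Hspa14, Nrarp and Tecpr1. H2-M3 is another class I chain. Searched on both strands over the 250 bases before each start, the X2 letters alone were in 6.12% of all promoters, the Y box letters in 33.8% and GAAANNGAA in 7.13%. Among the 8 genes, GAAANNGAA was found in B2m, 139 bases before its start. Only these exact letters were searched, so a related interferon element in other letters, in H2-K1 and H2-D1 too, would be missed. The letters TTCNNNGAA, the gamma-activated site, were found in Psmb8, 97 bases before its start, and in 7.02% of all promoters. Psmb9 and Tap1 share one run of 225 bases and one Y box, 8 bases before the Psmb9 start and 222 before the Tap1 start. Tapbp held 2 Y boxes, and Psmb10 held none of these letters. A match is a description of the sequence only.

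The probes are 60-base stretches of the transcripts. Those within coding sequence are printed for a class I chain, the transporter and both subunits that lie beside it, since the values below turn on how these probes read. Their positions on the mm9 build, as the array files give them, are chr17:34133984-34134043 (minus strand) for H2-K1, chr17:34330854-34330913 (plus) for Tap1, chr17:34337771-34337830 (plus) for Psmb8 and chr17:34319174-34319233 (minus) for Psmb9. Tap1, Tap2, Psmb8, Psmb9, Tapbp, H2-K1 and H2-D1 all lie on chromosome 17, in the MHC. B2m is on chromosome 2, and Psmb10 and Nlrc5 are on chromosome 8.
H2-K1 probe: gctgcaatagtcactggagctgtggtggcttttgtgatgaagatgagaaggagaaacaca
Tap1 probe: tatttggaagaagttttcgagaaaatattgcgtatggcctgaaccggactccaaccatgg
Psmb8 probe: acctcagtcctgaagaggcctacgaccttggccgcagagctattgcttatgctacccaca
Psmb9 probe: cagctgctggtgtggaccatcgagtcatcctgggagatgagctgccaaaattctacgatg

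The class I heavy chains are a family of close copies, so a probe may read more than its own gene. The H2-K1 probe printed above shares an unbroken run of 29 bases with a probe for H2-T23, a non-classical class I chain. The second H2-K1 probe and the H2-D1 probe share at most 14 bases with any other gene's probe. Only probes were compared, not whole transcripts, so this does not show that either reads a single gene.

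A few facts of the series bear on every value. Replicate 1 of each group was on slide 1 (4 arrays) and replicates 2 and 3 on slide 2 (8 arrays), and the first principal component of all genes, which held 53.2% of the variance, set slide 1 apart from slide 2. The 75th percentile of the signal was 1131 to 1766 on slide 1 and 3344 to 3906 on slide 2, and no spot was saturated. Wild-type liver replicate 1 had 49.0% of spots well above background, and the other arrays had 69.2% to 83.4%. The arrays labelled survivin-deleted liver replicate 1 and wild-type HCC replicate 1 are in doubt: the deposited value table gives each of them the values of the other's scanner file (r = 1, against 0.964 and 0.970 with their own). The labels were kept, and the medians and counts with these arrays exchanged or left out are given beside each comparison. Birc5, the targeted gene, read 0.06, 0.17 and -0.08 in survivin-deleted HCC, against 0.80, 0.82 and 1.76 in wild-type HCC, and 2.42, -0.10 and -1.07 in survivin-deleted liver, against 2.85, 0.51 and 0.76 in wild-type liver at its brightest probe. At this probe the HCC groups did not overlap. At another Birc5 probe they did, with -0.24, -0.61 and -0.99 in survivin-deleted HCC, against -0.57, 0.57 and 1.41 in wild-type HCC. Among the livers, replicate 1 of the survivin-deleted group was against its label: it read above 2 of the 3 wild-type livers, though below the one on its own slide. This array and the wild-type HCC at -0.57 are the arrays in doubt. With them exchanged, the survivin-deleted arrays of slide 1 read 0.80 (liver) and 0.06 (HCC) at the brightest probe. The wild-type arrays of that slide then read 2.85 (liver) and 2.42 (HCC). The other Birc5 probes also had both wild-type arrays above both deleted ones after the exchange. Which labels are right was not tested. Hepatocyte markers averaged 5.14 to 5.69 in all 12 arrays, on the scale used below.

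Levels are given as log2 of the processed signal minus the 75th percentile of the same array, so 0 is that percentile and 1 unit is a doubling. Arrays are always given in the order of replicates 1, 2 and 3. Probes differ in how strongly they bind, so a level is compared only with the same probe on other arrays. In whole tissue, fewer cells of a type and less RNA per cell cannot be told apart.

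H2-K1 and H2-D1, the heavy chains that hold the peptide, were bright on every array, and their ranges overlapped between all 4 groups. H2-K1 read 4.63, 4.85 and 4.76 in survivin-deleted HCC, against 3.90, 4.80 and 5.03 in wild-type HCC, and 4.32, 4.72 and 4.83 in survivin-deleted liver, against 4.59, 4.74 and 4.92 in wild-type liver. H2-D1 read 4.48, 4.64 and 4.67 in survivin-deleted HCC, against 4.02, 4.39 and 4.88 in wild-type HCC, and 4.05, 4.49 and 4.91 in survivin-deleted liver, against 4.18, 4.65 and 4.76 in wild-type liver. In both genes replicate 1 was the lowest array of each group. B2m, the light chain without which the heavy chain does not reach the surface, read 4.98, 4.75 and 4.98 in survivin-deleted HCC, against 3.90, 5.13 and 5.30 in wild-type HCC, and 3.58, 4.74 and 5.09 in survivin-deleted liver, against 3.75, 5.0 and 5.40 in wild-type liver. Replicate 1 was more than 1 unit below the others in wild-type HCC and in both liver groups, but not in survivin-deleted HCC. Group means of B2m were 4.90 ± 0.13 in survivin-deleted HCC, 4.78 ± 0.76 in wild-type HCC, 4.47 ± 0.79 in survivin-deleted liver and 4.72 ± 0.86 in wild-type liver (SD, n = 3 each). The spread within 3 of these groups was larger than any difference between their means.

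Tap1 and Tap2 form the transporter, and Tapbp bridges it to the heavy chain. Tap1 read 0.92, 0.07 and -0.51 in survivin-deleted HCC, against 0.91, -0.60 and -0.79 in wild-type HCC, and 1.4, -0.80 and -0.32 in survivin-deleted liver, against 1.23, -0.42 and -0.65 in wild-type liver. Its replicate 1 was the highest array of every group, by more than the distance between any pair of group means. Tap2 read 2.29, 2.26 and 1.61 in survivin-deleted HCC, against 2.30, 1.72 and 1.5 in wild-type HCC, and 2.36, 1.97 and 2.02 in survivin-deleted liver, against 2.57, 1.80 and 1.78 in wild-type liver. Tapbp read 3.34, 3.72 and 3.25 in survivin-deleted HCC, against 3.72, 3.05 and 3.03 in wild-type HCC, and 3.64, 3.46 and 3.32 in survivin-deleted liver, against 3.87, 3.06 and 3.21 in wild-type liver. Survivin-deleted HCC replicate 2 was the only array on which Tapbp was higher than on replicate 1 of its group. All ranges of these 3 genes overlapped between the groups.

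Psmb8, Psmb9 and Psmb10 are the catalytic subunits of the immunoproteasome, which cuts peptides with ends that fit class I. Psmb8 read 3.16, 2.47 and 1.68 in survivin-deleted HCC, against 3.44, 2.03 and 1.78 in wild-type HCC, and 3.54, 2.05 and 2.04 in survivin-deleted liver, against 3.63, 2.07 and 2.04 in wild-type liver. Psmb9 read 3.01, 2.70 and 1.73 in survivin-deleted HCC, against 3.15, 2.00 and 1.69 in wild-type HCC, and 3.76, 1.83 and 2.36 in survivin-deleted liver, against 4.04, 2.19 and 2.27 in wild-type liver. Both were highest on replicate 1 of every group. Psmb10 ran the other way: it read 2.71, 3.64 and 3.30 in survivin-deleted HCC, against 2.42, 3.01 and 2.90 in wild-type HCC, and 2.40, 3.24 and 3.09 in survivin-deleted liver, against 2.71, 3.14 and 3.11 in wild-type liver, with replicate 1 the lowest. Group means of Psmb10 were 3.22 ± 0.47 in survivin-deleted HCC, 2.78 ± 0.31 in wild-type HCC, 2.91 ± 0.45 in survivin-deleted liver and 2.99 ± 0.24 in wild-type liver (SD, n = 3 each). Within each slide survivin-deleted HCC was above wild-type HCC, but across slides the ranges overlapped.

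Nlrc5, the transactivator that drives the class I chains, read 2.85, 2.27 and 2.09 in survivin-deleted HCC, against 2.49, 2.18 and 2.04 in wild-type HCC, and 2.98, 1.72 and 2.11 in survivin-deleted liver, against 3.06, 1.89 and 1.99 in wild-type liver. It was highest on replicate 1 of every group, and its groups overlapped. A second Nlrc5 probe lay between -3.36 and -1.96. A second, dim Psmb9 probe for another transcript was well above background on 8 of 12 arrays and lay between -7.36 and -2.99.

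**Figure D1:**
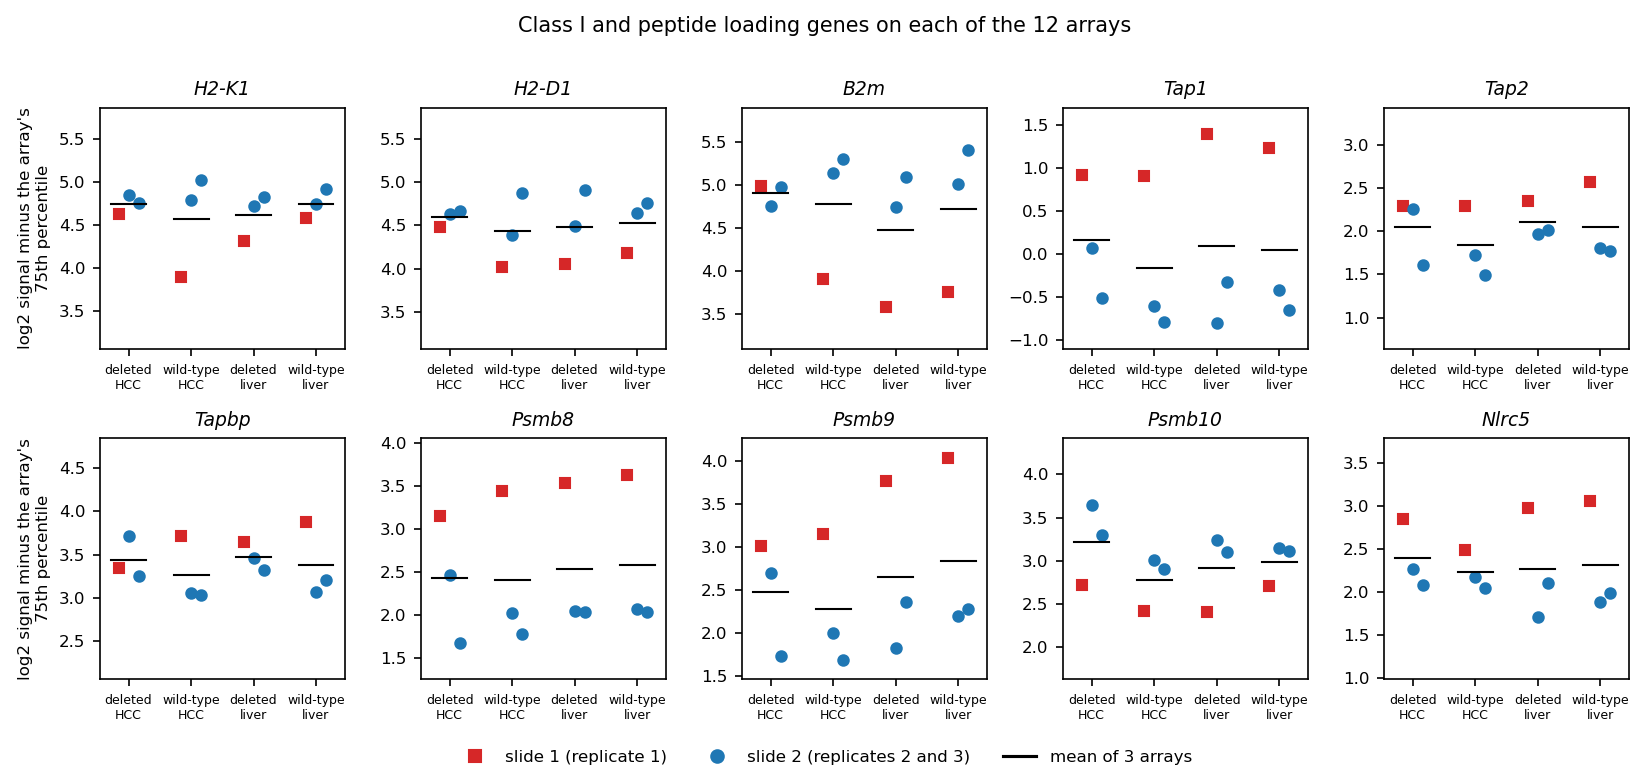
Log2 level of each of the 10 genes (signal minus the 75th percentile of the array) on all 12 arrays, by group, with the replicates of slide 1 and slide 2 told apart by their markers. The arrays of slide 1 stand above those of slide 2 for Tap1, Psmb8, Psmb9 and Nlrc5 and below them for Psmb10, while the 4 groups overlap in every gene.

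Survivin-deleted HCC was set against wild-type HCC to ask whether loss of survivin in tumours goes with other levels of the class I pathway. None of the 10 genes passed the test (limma, Benjamini-Hochberg adjusted over all genes), and none of 26506 genes did (0%). All 10 estimates, from 1 probe a gene, were above 0, with a median of 0.17 log2 units, against a median of -0.02 over all genes tested. With the arrays in doubt exchanged 7 of the 10 were above 0 and the median was 0.16, and with both left out 7 were above 0, with the 3 chains below, and the median was 0.34, or 0.14 with the slide also blocked. The largest was that of Psmb10, 0.44 (SE 0.341), a fold of 1.36. Tap1 had 0.32 (SE 0.712), Tap2 0.22 (SE 0.338), Psmb9 0.20 (SE 0.654), Tapbp 0.17 (SE 0.312) and Psmb8 0.02 (SE 0.635). The chains were near 0 for their errors, with 0.17 for H2-K1 (SE 0.321), 0.16 for H2-D1 (SE 0.322) and 0.13 for B2m (SE 0.535), and Nlrc5 had 0.16 (SE 0.417). The second probes had -0.01 for H2-K1 (SE 0.295), 0.16 for Nlrc5 (SE 0.455) and 0.92 for the dim one of Psmb9 (SE 1.08). The sign of H2-K1 thus depends on the probe, though with the probes of each gene averaged all 10 were above 0. No gene had an unadjusted limma p under 0.05, against 1.83% of all genes. The groups overlapped for all 10 genes and all 13 probes, where 2.74% of all genes had no overlap and were higher and 2.67% had no overlap and were lower. Exact permutation tests of the single genes, two-sided, gave p between 0.3 and 1, where the smallest p that 3 against 3 arrays allow is 0.1.

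With slide as a block the same differences had smaller errors, and the 95% intervals show what the arrays could exclude. On the log2 scale that of Psmb10, given next, was the narrowest, and that of B2m the widest, with a fold of 0.66 to 1.81. For Psmb8 the interval of the fold was 0.723 to 1.42 and for Psmb9 it was 0.723 to 1.83. H2-K1 had 0.821 to 1.54, H2-D1 0.825 to 1.52, Tap1 0.863 to 1.8, Tap2 0.851 to 1.58, Tapbp 0.799 to 1.59 and Nlrc5 0.816 to 1.53. All 10 intervals lay within a 2-fold change in either direction and 9 of them held no change. Without the block only 4 of the 10 lay within 2-fold, and that of Tap1 ran between 0.42 and 3.71.

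Psmb10 was the exception with the block, with an interval of the fold of 1.06 to 1.75, which is an unadjusted p under 0.05, and a limma adjusted p = 0.59. Unadjusted, 3.44% of all genes were higher at that threshold and 4.44% lower, and of the 10 class I genes 1 was higher and 0 lower, too few to read against those shares. Psmb10 was 0.52 higher on slide 2 alone (limma adjusted p = 0.183) and 0.45 higher with the arrays in doubt exchanged and the slide blocked. Without survivin-deleted HCC replicate 2 its difference was 0.23 (SE 0.371), or 0.33 with the slide also blocked, and with both arrays in doubt left out it was 0.27 (limma adjusted p = 0.904), or 0.46 with the slide also blocked (limma adjusted p = 0.387). On slide 2 alone, where each group has 2 arrays, the HCC groups did not overlap for Tap1, Tapbp and Psmb10, which were higher in survivin-deleted HCC, and for B2m, which was lower there. Among all genes 27.8% were apart and higher and 21.9% apart and lower, so 3 and 1 of 10 are near the background. On slide 2, B2m was -0.35, H2-K1 -0.11 and H2-D1 0.01, against 0.48 for Tap1, 0.44 for Tapbp and 0.37 for Psmb9.

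**Figure D2:**
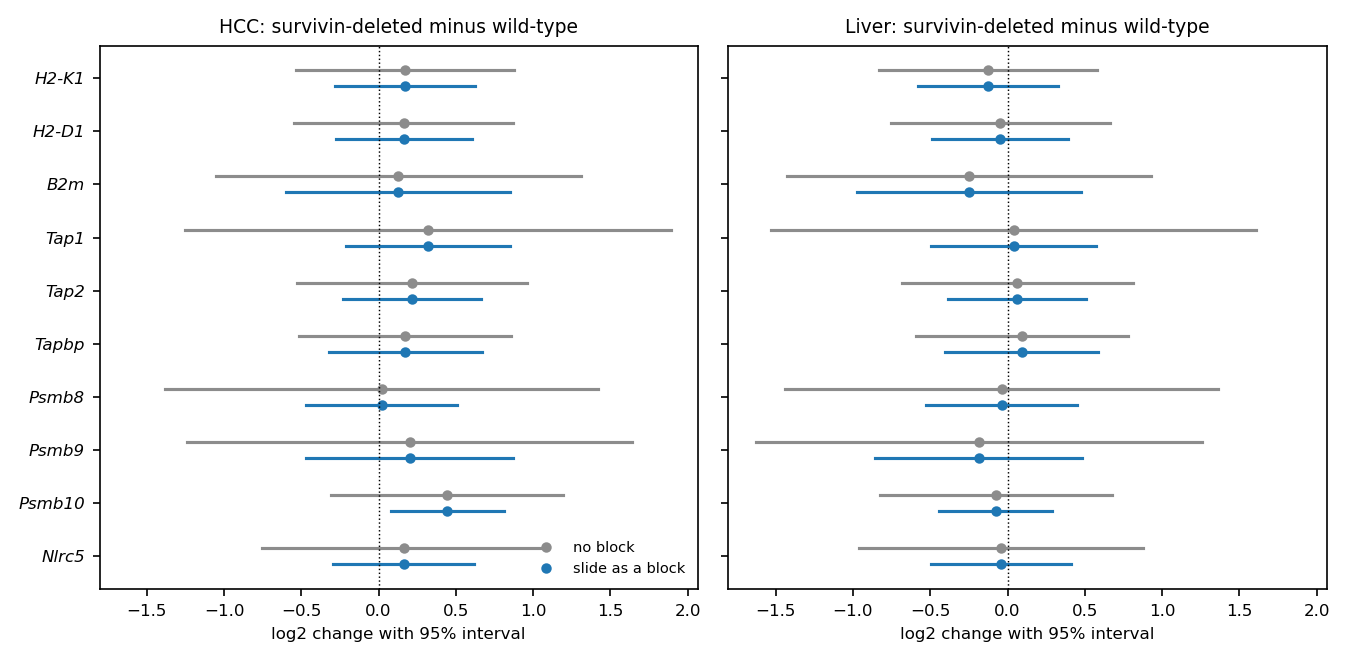
Log2 difference of each gene for survivin-deleted minus wild-type tissue, in HCC and in liver, with 95% intervals from the fit without a block (grey) and with slide as a block (blue). With the block the interval of Psmb10 in HCC leaves out 0, and the other 9 in HCC and all 10 in liver hold it.

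The same comparison in liver, survivin-deleted against wild-type, gave no gene that passed (0% of all genes). Of the 10 genes 3 were above 0 and 7 below, with a median of -0.04 against 0.05 over all genes. The 3 above were Tapbp at 0.09, Tap2 at 0.06 and Tap1 at 0.04, the transport and loading genes. The others were B2m at -0.25, Psmb9 at -0.19, H2-K1 at -0.13, Psmb10 at -0.08, H2-D1 at -0.05, Nlrc5 at -0.04 and Psmb8 at -0.04. These directions depend on the probe: the second probes of Nlrc5 and Psmb9, the latter dim, had 0.43 and 0.99, and that of H2-K1 had -0.19. With the probes of each gene averaged 5 of 10 were above 0. The directions also depend on the scaling: after quantile normalization 8 of 10 were above 0, and after a normexp background correction with quantile normalization 9 were. With the arrays in doubt exchanged 2 were above 0 (median -0.10), and with both left out 5 were (median -0.03). Without wild-type liver replicate 1, in a fit that leaves the slides unbalanced, 6 were above 0 (median 0.33). No gene had an unadjusted limma p under 0.05, where 3.03% of all genes did, and with slide as a block again none did, against 8.37% of all genes higher and 3.46% lower. The groups overlapped for all 10, where 6.28% of all genes were apart and higher and 3.21% apart and lower, and the exact permutation p ran between 0.6 and 0.9. With the block the intervals of the fold were 0.736 to 1.22 for Psmb10, the narrowest, and 0.509 to 1.39 for B2m, the widest, so all 10 held no change and all 10 lay within 2-fold. On slide 2 alone Tap2 and Tapbp did not overlap and were higher in survivin-deleted liver, where 25.9% of all genes were apart and higher and 23.7% apart and lower.

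Tumour and non-cancerous liver were compared within each genotype. In wild-type mice, HCC against liver gave no call (0%), and 9 of 10 genes were below 0 with a median of -0.17. The median was -0.11 with the arrays in doubt exchanged and -0.27 with both left out, where 7 genes were below 0. With the probes of each gene averaged 8 were. The second probes had 0.22 for Nlrc5, -0.08 for H2-K1 and -0.50 for Psmb9. Psmb9 had the largest difference, -0.55 (-0.35 with these arrays exchanged and -0.99 with both left out, or -0.56 with the slide also blocked), with an interval of the fold of 0.428 to 1.08 with slide as a block (limma adjusted p = 0.752). Tap1, Tap2 and Psmb10 each had -0.21, H2-K1 -0.17, Psmb8 -0.16, Tapbp -0.11, H2-D1 -0.10, Nlrc5 -0.08 and B2m 0.06. No gene passed an unadjusted limma p of 0.05, where 1.68% of all genes did, and the groups overlapped for all 10, where 4.63% of all genes were apart and higher and 2.37% apart and lower. Exact permutation p ran between 0.5 and 1. On slide 2 alone 5 genes did not overlap and were lower in wild-type HCC, namely Tap2, Tapbp, Psmb8, Psmb9 and Psmb10, and Nlrc5 was higher. The background there was 21.9% higher and 21.7% lower.

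In survivin-deleted mice, HCC against liver gave no call (0%), with 6 genes above 0, 4 below and a median of 0.09 (0.18 with the arrays in doubt exchanged and 0.06 with both left out). B2m had 0.43, Psmb10 0.31, Nlrc5 0.13, H2-K1 0.12, H2-D1 0.11 and Tap1 0.07, against -0.03 for Tapbp, -0.06 for Tap2, -0.11 for Psmb8 and -0.17 for Psmb9. The second probes had 0.10 for H2-K1, -0.05 for Nlrc5 and -0.57 for Psmb9. None had an unadjusted limma p under 0.05, where 0.856% of all genes did. The groups overlapped for all 10, where 2.23% of all genes were apart and higher and 2.25% apart and lower, and exact permutation p ran between 0.4 and 1. On slide 2 alone Psmb10 did not overlap and was higher in survivin-deleted HCC, where 22.4% of all genes were apart and higher and 18.1% apart and lower. In both tissue comparisons 9 of the 10 intervals lay within 2-fold with slide as a block, the exceptions being Psmb9 in wild-type mice and B2m in survivin-deleted mice, whose interval was 0.815 to 2.23.

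Whether the deletion went with a different change in HCC than in liver was tested as an interaction. No gene was called (0%), and 0.562% of all genes, none of them among the 10, had an unadjusted limma p under 0.05. All 10 estimates, from 1 probe a gene, were above 0, with a median of 0.24. After quantile normalization 8 were, and 7 with both arrays in doubt left out. With the probes of each gene averaged 9 were. The second probes of Nlrc5 and Psmb9 had -0.27 and -0.07, against 0.18 for that of H2-K1. Psmb10 had the largest estimate, 0.52 (SE 0.482). Leaving out each array in turn gave 4 to 10 above 0 and a median of -0.14 to 0.37, and the lowest of both came without wild-type liver replicate 1. With slide as a block Psmb10 passed an unadjusted limma p of 0.05 but had a limma adjusted p = 0.913. Of all genes 0.845% were higher at that unadjusted threshold and 2.44% lower. With the replicate number as the block it missed the unadjusted threshold.

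The slide was the one factor with which the class I genes differed past the test. Fitted beside the 4 groups, slide 1 minus slide 2 was called for 9 of the 10 genes, 5 higher and 4 lower, where 40.2% of all genes were called higher and 20.9% lower. Tap1 was 1.62 higher on slide 1 (SE 0.178, limma adjusted p = 6.12e-05), with 0.91 to 1.4 on slide 1 and -0.80 to 0.07 on slide 2. Psmb8 was 1.42 higher (SE 0.164) and Psmb9 1.39 higher (SE 0.224), followed by Nlrc5 at 0.81 (SE 0.153) and Tap2 at 0.55 (SE 0.15). In all 5 genes the slide 1 array stood above both slide 2 arrays in all 4 groups. B2m was -0.99 (SE 0.244, limma adjusted p = 0.00573), Psmb10 -0.62 (SE 0.123), H2-D1 -0.49 (SE 0.148) and H2-K1 -0.47 (SE 0.152). For the last 3 the slide 1 array was below both others in all 4 groups, and for B2m in 3, the exception being survivin-deleted HCC. Tapbp was 0.38 (SE 0.166, limma adjusted p = 0.0704). Slide and replicate number coincide, since slide 1 holds all arrays numbered 1, so the slide and whatever else those samples share cannot be told apart.

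Repeated spots of the same probe showed how much of this spread arises on one array. The Tap1 probe is printed 10 times on each array, and its spots had a median SD of 0.046 over the arrays and a highest of 0.268, against an SD of 0.971 between arrays of a group. For B2m, with 2 spots, the median was 0.041 and the highest 0.32, against 0.701 between arrays. For the second H2-K1 probe, with 10 spots, they were 0.102 and 0.341, against 0.282 between arrays. The spot values are SDs of single spots, while the value of an array is the mean of its spots and has a smaller error. The 2 probes of H2-K1 did not follow each other across slides: the one used here was -0.47 on slide 1 relative to slide 2, and the other, which reads nearer the end of the transcript, was 0.38. The other read 4.52, 4.29 and 4.12 in survivin-deleted HCC, against 4.69, 4.08 and 4.21 in wild-type HCC, and 4.19, 4.17 and 4.29 in survivin-deleted liver, against 4.87, 4.10 and 4.24 in wild-type liver. The slide difference of H2-K1 thus has no single sign. The second probes of Psmb9 and Nlrc5 had the sign of the first, with 2.31 and 0.92.

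**Figure D3:**
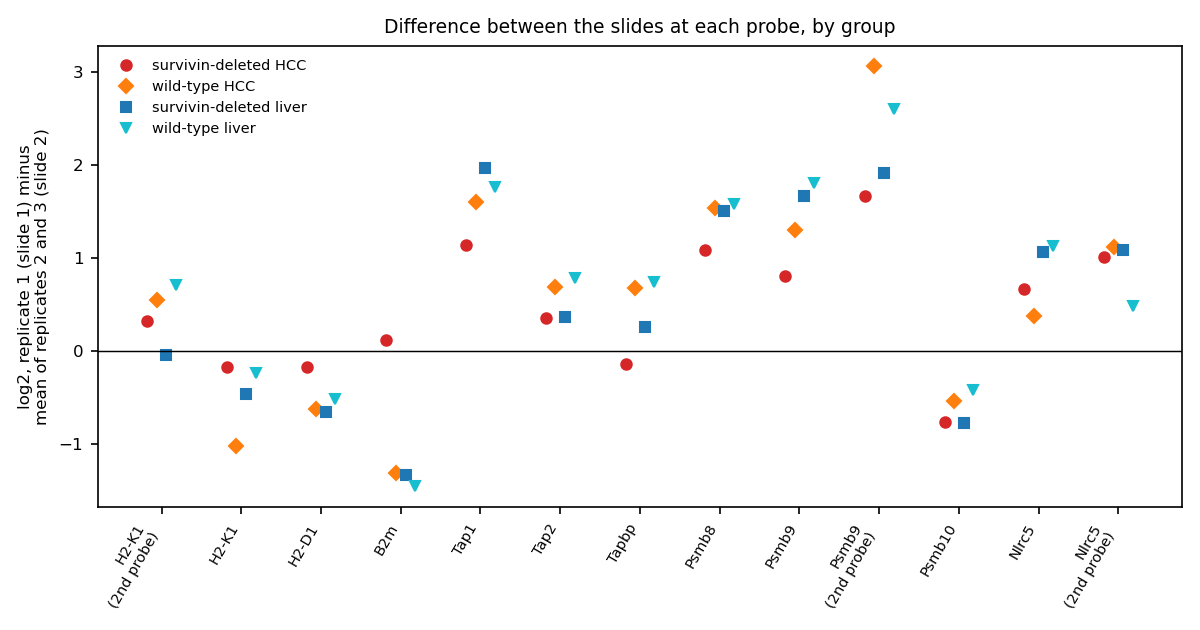
Log2 level on replicate 1 (slide 1) minus the mean of replicates 2 and 3 (slide 2) for each of the 13 probes, one point per group. All 4 groups lie above 0 for the probes of Tap1, Tap2, Psmb8, Psmb9 and Nlrc5 and below 0 for Psmb10 and H2-D1, while the 2 probes of H2-K1 differ in sign in 3 of the 4 groups.

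After the mean of each slide was taken off each gene, the processing and transport genes ran together, and B2m apart from most of them. Over 12 arrays, which share 2 slides, Psmb8 and Psmb9 had r = 0.858, Tap2 and Psmb8 0.844, and Tap1 with Psmb9 and Tap2 with Tapbp 0.817 each. The chains kept together more loosely, with 0.663 for H2-D1 and B2m, 0.63 for H2-K1 and H2-D1 and 0.478 for H2-K1 and B2m. B2m had negative values with the loading and processing genes, with -0.691 for Tapbp, -0.607 for Psmb8, -0.506 for Psmb9, -0.489 for Tap1 and -0.436 for Tap2, and -0.0955 for Psmb10. Nlrc5 had r = 0.614 with H2-K1, 0.191 with H2-D1 and -0.06 with B2m. Each gene was also set against the mean of the other 9: Tap2 had 0.712, Tap1 0.679, Psmb9 0.678, Nlrc5 0.613, Psmb10 0.612, Psmb8 0.55, Tapbp 0.417, H2-K1 0.365, H2-D1 0.157 and B2m -0.36. These are descriptions of 12 arrays.

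One array stood out in this shared pattern. Among the 8 arrays of slide 2, survivin-deleted HCC replicate 2 had the highest level of 7 of the 10 genes: Tap1, Tap2, Tapbp, Psmb8, Psmb9, Psmb10 and Nlrc5. The lowest levels lay mostly on wild-type HCC replicate 3, for Tap2, Tapbp, Psmb9 and Psmb10, and on survivin-deleted liver replicate 2, for H2-K1, B2m, Tap1 and Nlrc5. On survivin-deleted HCC replicate 2 the markers of T and NK cells averaged -0.38, the highest of slide 2, where the other 7 arrays lay between -3.27 and -1.59. Leukocyte markers averaged 1.74 there and hepatocyte markers 5.14, the lowest hepatocyte mean of the 12 arrays on the log scale. As summed linear signal, in the units used below for the T and NK markers, the hepatocyte markers were not lowest there. They read 255.3, against 238.1 in survivin-deleted HCC replicate 1 and 221.4, 212.2 and 227.9 in survivin-deleted liver. All other arrays read higher. The summed leukocyte signal was 11.89 there, against 11.88 in survivin-deleted liver replicate 2. The part of immune cells and hepatocytes in the class I values was not tested. Survivin-deleted HCC replicate 2 was also left out, in a fit without a block that leaves the slides unbalanced. The median difference of the 10 genes in HCC was then 0.13. Tapbp had 0.03, Psmb10 0.23, Tap2 0.11, Psmb9 0.09 and Psmb8 0.00, while Tap1 had 0.36 and Nlrc5 0.23, both higher than with it. With the slide also blocked, a setting chosen after seeing the data, the median was 0.08 and 7 of 10 were above 0, with Tap1 at 0.08, Nlrc5 at 0.09 and Tapbp, Psmb8 and Psmb9 below 0.

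**Figure D4:**
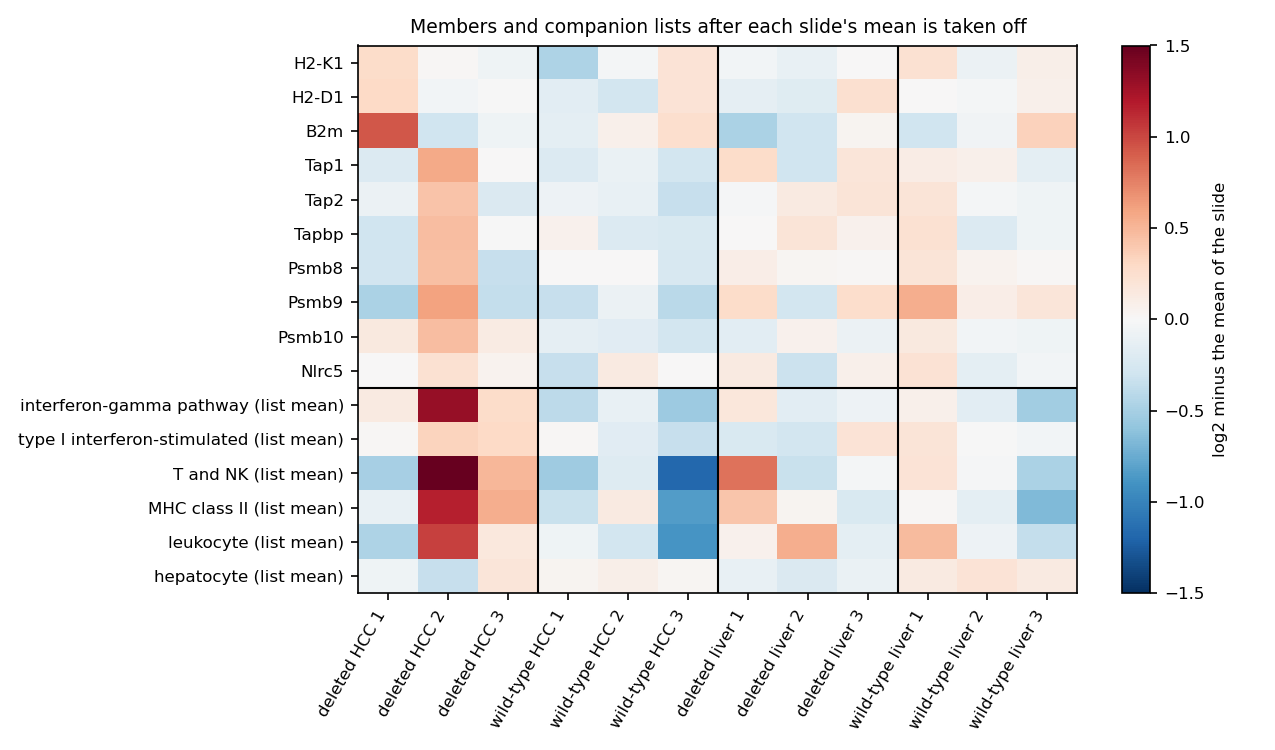
Heat map of the log2 level of the 10 genes, and of the mean of 6 companion and marker lists, on each array (columns) after the mean of its slide was taken off. Survivin-deleted HCC replicate 2 stands highest among the arrays of slide 2 for 7 of the 10 genes. It is also highest there for the interferon-gamma, type I interferon, T and NK, class II and leukocyte lists, and lowest for the hepatocyte list.

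Other genes of the pathway were set beside the 10 from fixed lists, by counts and medians, and no gene of any list passed the adjusted test in any comparison. The constitutive proteasome subunits, which the immunoproteasome subunits replace, were lower in survivin-deleted HCC in 3 of 3: Psmb5, whose place Psmb8 takes, at -0.01, Psmb6, whose place Psmb9 takes, at -0.07 and Psmb7, whose place Psmb10 takes, at -0.33. In liver their median was -0.18, with 3 of 3 lower. Of 11 other processing genes 6 were higher and 5 lower in HCC, with a median of 0.01, including Erap1, which trims peptides, at 0.53, and Psme1, a proteasome activator, at 0.22. The chaperones Pdia3 and Canx, which fold the heavy chain, had -0.28 and -0.25. Of 16 other class I chains measured 5 were higher and 11 lower, with a median of -0.11. H2-M3, which presents formylated peptides, had the smallest p among them, with 0.68 (limma adjusted p = 0.626 with slide as a block). Of 12 transcription factors of class I genes 7 were higher, with a median of 0.16. Rela, a subunit of NF-kappa-B, had 0.82 (limma adjusted p = 0.615 with slide as a block).

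The interferon-gamma list holds other targets and regulators of that cytokine, most of which were higher in survivin-deleted HCC without passing the adjusted test. Of its 18 measured genes 15 were higher in survivin-deleted HCC and 3 lower, with a median of 0.85, where the class I genes had 0.17 and all genes -0.02. Cd274, the checkpoint ligand PD-L1, had 2.69 (SE 0.521) and Gbp3, an interferon-induced GTPase, 1.42 (SE 0.322), and both had an adjusted limma p of 1. Gbp2 had 1.79 (SE 0.72). With slide as a block 7 of the 18 were higher at an unadjusted limma p under 0.05, against 3.44% of all genes. The list was chosen with earlier results of these data known and its genes vary together, so that count is a description only. The mean of the list was 1.28, 1.74 and 0.69 in survivin-deleted HCC, against 0.74, 0.32 and -0.12 in wild-type HCC. The type I interferon list had a median of 0.21, with 12 of 17 higher, among them Oas2 at 0.74 and Ifit1 at 0.92. The median of the interferon-gamma list was 0.61 with the arrays in doubt exchanged, 1.18 with both left out and 0.52 without survivin-deleted HCC replicate 2, settings that were run on the lists after seeing the data. All 9 class II genes were higher, with a median of 0.92, including H2-DMb1, which edits class II peptides, at 1.32 (SE 0.781), and their median was 0.54 with those arrays exchanged and 0.55 without survivin-deleted HCC replicate 2.

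Markers of immune cells moved with these lists in HCC. All 11 measured T and NK markers were higher in survivin-deleted HCC, with a median of 1.28. Cd3d, a chain of the T cell receptor complex, had 1.75, Cd3g 1.74 and Cd2, a T cell adhesion receptor, 1.73. Survivin-deleted HCC had a mean of the T and NK markers of -1.66 to -0.38, against -3.27 to -1.69 in wild-type HCC. The difference lay on slide 2, where the median of the 11 was 2.09, while on slide 1 the mean was -1.66 in survivin-deleted HCC, against -1.69 in wild-type HCC. The median was 0.87 with the arrays in doubt exchanged, 1.85 with both left out, and 0.68 without survivin-deleted HCC replicate 2, or 0.47 with the slide also blocked, each with 10 of 11 higher. Among the arrays in doubt, the one labelled replicate 1 of survivin-deleted liver, to which the value table gives the place of a wild-type HCC, read -0.34. Their summed linear signal, in units of the 75th percentile, was 6.68 to 14.7 in survivin-deleted HCC, 3.89 to 6.87 in wild-type HCC, 5.05 to 16.7 in survivin-deleted liver and 4.85 to 12.6 in wild-type liver, and Klrk1, the marker not counted, was not well above background. All 3 leukocyte markers were higher, with a median of 0.64, all 5 B cell markers, with a median of 1.09, and 5 of 7 macrophage markers, with a median of 0.43. On slide 2 the leukocyte median was 1.16 and the B cell median 1.99, but on slide 1 the means were lower in survivin-deleted HCC, with 0.86 against 1.27 in wild-type HCC for the leukocyte markers and -1.94 against -1.68 for the B cell markers. Exchanging the arrays in doubt gave 0.73 for the leukocyte and 1.38 for the B cell markers, and without survivin-deleted HCC replicate 2 these were 0.32 and 1.08. The hepatocyte markers had a median of 0.00019, with 3 of 5 higher, and the endothelial markers one of 0.08. The part of immune cells in the interferon and class I values was not tested. In liver the medians were 0.09 for the interferon-gamma list, -0.11 for the type I list, 0.24 for class II, 0.12 for the T and NK markers and -0.28 for the hepatocyte markers. With the arrays in doubt exchanged these were -0.05, -0.13, 0.14, -0.04 and -0.25, in the same order. Albumin, Alb, had -0.54 in liver with the labels kept (limma adjusted p = 0.416 with slide as a block). In wild-type HCC against wild-type liver the medians were -0.54 for the T and NK markers, -0.96 for the B cell markers and -0.21 for the interferon-gamma list.

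**Figure D5:**
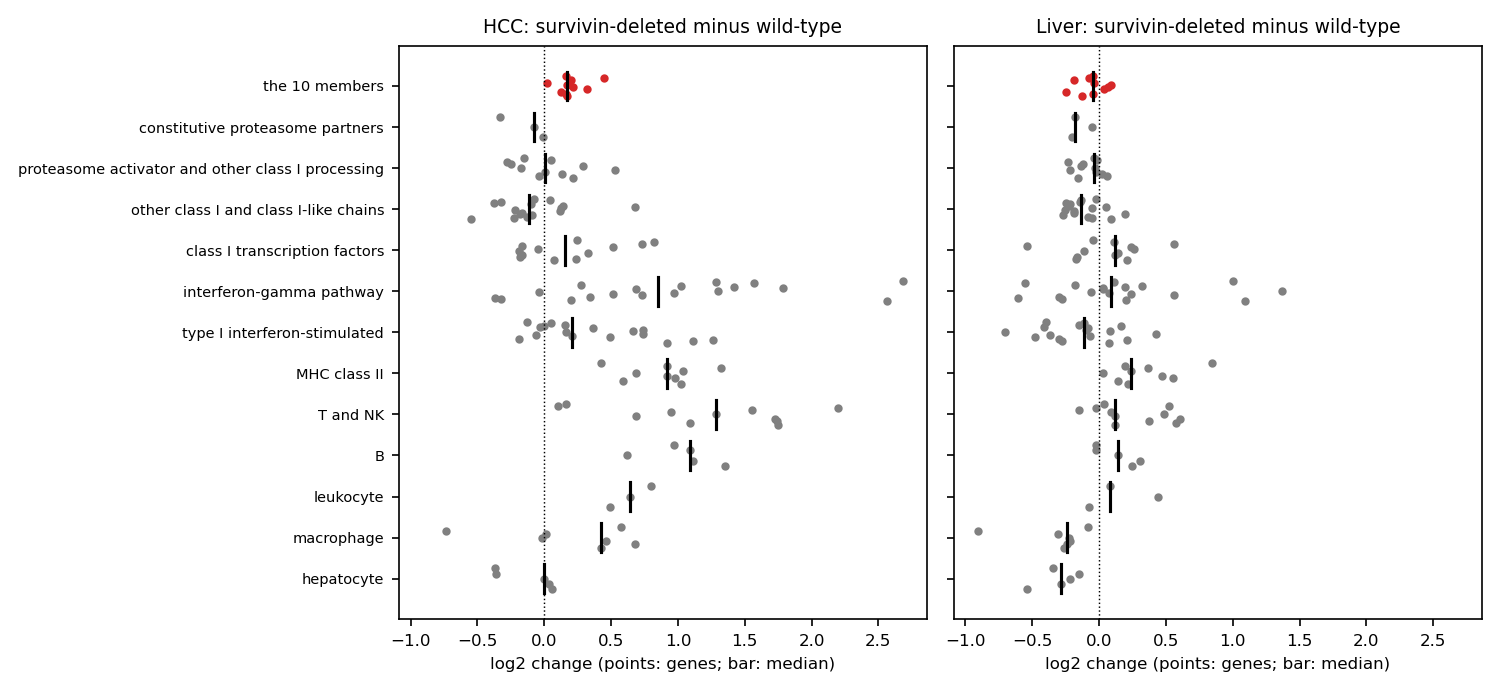
Log2 difference of each class I gene and of each gene of the companion and marker lists (points), with the median of the list (bar), for survivin-deleted minus wild-type tissue, in HCC and in liver. In HCC the medians of the T and NK, B cell, class II and interferon-gamma lists lie between 0.85 and 1.28, above the class I genes at 0.17, and in liver they lie between 0.09 and 0.24.

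Across the 12 arrays, with slide means taken off, the mean of the 10 genes ran most closely with the interferon-gamma list (r = 0.712) and the T and NK markers (r = 0.662), then with the type I interferon list (0.596), the leukocyte markers (0.526) and the class II genes (0.492). It ran against the hepatocyte markers (-0.404), and had r = 0.03 with the constitutive subunits. For the other class I chains r was 0.176, for the other processing genes 0.0169 and for the class I transcription factors 0.269. The macrophage markers had r = 0.142 and the endothelial markers 0.213. The single genes most like the mean of the 10 were Eml1 (r = 0.907), Mndal (0.906), Cldn5 (0.896), Akr1b10 (0.896), Grap (0.891), Gimap6 (0.885), Fmod (0.881), Nav1 (0.873), Lrrc33 (0.864) and Cmtm3 (0.862). Mndal belongs to an interferon-inducible family, and Cldn5 is a tight junction protein of endothelium. All these values share the same 12 arrays, groups and slides, and describe them only.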

How the data were processed

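Total RNA was hybridised to 12 one-colour Agilent mouse arrays. Spot intensity was extracted by Feature Extraction 10.7 (Agilent), as the submitters' processing notes give it, on a design of build mm9, per the file headers. The deposited processed intensity was detrended within each array, per the file headers. The deposited value table holds log2 values whose 75th percentile is near 0 on each array. The other deposited columns are flags for spots well above background or saturated. The levels used here are log2 of the processed intensity minus the 75th percentile of each array, with repeated spots of a probe averaged. Probes were kept that stood well above background on every array of 1 group or more (39136 of 55681), and a gene is its probe of highest mean (26506 of 34844 names). limma 3.58.1 in R 4.3.3 fitted 4 group means to 12 arrays without a block (8 residual degrees of freedom), with slide (7) and replicate number (6) as block alternatives, and Benjamini-Hochberg adjustment at 0.05 over all genes, in 5 comparisons. Precision is limited by the number of arrays. Normalization, background correction, probe filter, probe choice, eBayes variant, the value table, the arrays in doubt and each array left out were varied. The fit was tested on simulated data.

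The named genes were all 10 members with every probe, Birc5, the constitutive proteasome partners, up to 4 genes of each list with the smallest unadjusted p in a comparison, and the 10 genes most like the members' mean. Pdia3, Canx, Erap1, Psme1 and the examples from the lists follow that rule. The members and lists were chosen with earlier results of these data known. Same-numbered arrays deviated together (r from group means 0.279 to 0.737 over 18 pairs of arrays), but not within slide 2 (-0.0908 to 0.284 over 6), so the numbers pair the arrays through the slide. Sequences came from the RefSeq promoter table (GRCm38.p6, not the build of the arrays) and the probe columns of the array files. Tap2 and Nlrc5 promoters were not used here. The values of 1 further gene are not reported here.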

Additional observations from a re-analysis of the deposited data

How the results depend on the processing

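No class I gene was called in any comparison under any setting run. The median difference of the 10 genes moved from its main value by less than 0.47 in each. That bar is the SD of their median level between arrays of a group. It includes the slide difference, so it is wide and a change of sign can pass it. In survivin-deleted against wild-type HCC, leaving out each array in turn gave 6 to 10 genes above 0 and a median of 0.06 to 0.36, and the other 17 settings gave 7 to 10 and 0.08 to 0.34. In liver these were 2 to 6 genes with a median of -0.12 to 0.33 (the highest without wild-type liver replicate 1), and 2 to 9 genes with -0.11 to 0.08. For wild-type HCC against wild-type liver they were 1 to 6 genes with -0.28 to 0.05, and 1 to 3 genes with -0.27 to -0.08. For survivin-deleted HCC against survivin-deleted liver they were 4 to 10 genes with -0.09 to 0.24, and 5 to 7 genes with -0.06 to 0.19. For the interaction they were 4 to 10 genes with -0.14 to 0.37, and 7 to 10 genes with 0.09 to 0.45 over 16 settings. Some of these settings could not move the estimates. The filter variants, the slide and replicate blocks with all arrays and the trended robust variances repeated the main counts and medians. So did the fit of only the groups compared, and leaving out an array outside those groups. The value table holds the exchanged arrays, so it is no separate check of them. The ranges therefore partly repeat the main fit. The sign of single genes changed in 188 values, none of them called, and not in 1252, which include such repeats, and the cause was not tested. The lowest adjusted limma p of any class I gene in any setting was 0.183, for survivin-deleted against wild-type HCC. Psmb10 in that comparison ran between 0.23 and 0.70 with each array left out.

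With the replicate number as a block, the pairing that follows the slide, no gene was called in HCC (Psmb10 limma adjusted p = 0.636). The median there stayed at 0.17, which this block cannot move. The replicate block changed no other call. Precision is limited by 3 arrays a group, and the dim second probe of Psmb9 by its signal over background.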
